A study of Mus musculus with 12 samples.

Results

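The 32 genes described here encode chaperones, folding enzymes and stress regulators of the endoplasmic reticulum. They were taken by symbol from a list of the unfolded protein response, chosen with earlier results of these data known. Their shares set beside those of all genes are thus a description and no independent test. All 32 of them were found among the 21004 genes of a spleen RNA-seq table. The spleens came from ICR mice, an outbred stock, aged 8 weeks, and the 12 libraries form 4 groups of 3. One group received busulfan with L.J. at 10 mg/kg, one busulfan alone, one L.J. alone at 10 mg/kg, and one is labelled control. Busulfan is an alkylating drug that is toxic to dividing blood precursors. Neither the meaning of L.J., the dose of busulfan, the sex of the mice nor the time to collection is given, and the control label names no vehicle. The description of the series speaks of FMT effects on a spleen damaged by busulfan, but no sample label mentions FMT. Whether each library is a mouse of its own is not stated, so p-values measure only the spread between these libraries.

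Secreted and membrane proteins fold inside the endoplasmic reticulum. When unfolded protein builds up there, the sensors Ern1 (IRE1), Eif2ak3 (PERK) and Atf6 start the unfolded protein response: IRE1 splices the Xbp1 mRNA, PERK slows translation and favours the factor Atf4, and ATF6 is cut into an active factor. Their shared targets include the chaperone Hspa5 (BiP), its J-domain partners, disulfide isomerases and the machinery that returns misfolded protein to the cytosol for degradation. In the spleen this pathway is best known from plasma cells, which need Xbp1 to secrete antibody. Other cells that secrete much protein, such as pancreatic acinar cells, also hold these transcripts at high levels.

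Many chaperone promoters carry the ER stress response element (ERSE), which ATF6 and XBP1 can bind together with the CCAAT-binding factor NF-Y. RefSeq promoters on GRCm38.p6, the assembly called mm10, were found for 26 of the 32 genes, and the 250 bases before the start were searched on both strands. The element, CCAAT and CCACG with 9 free bases between them, was present in 10 of the 26 promoters (38.5%), against 33 of 27025 promoters of the whole table (0.122%). Its 11 copies are printed because, of the 5 motifs searched, it had the largest ratio of its share in these promoters to its share in all promoters. Capitals mark the fixed letters, and each copy is written in the direction of the element with its genome strand.

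Hspa5 site, chr2:34772025-34772043, + strand: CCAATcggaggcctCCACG
Calr site, chr8:84847075-84847093, + strand: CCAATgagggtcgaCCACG
Derl3 site, chr10:75893242-75893260, - strand: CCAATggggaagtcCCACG
Hsp90b1 site, chr10:86705638-86705656, - strand: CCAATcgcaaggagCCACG
Hsp90b1 site, chr10:86705533-86705551, + strand: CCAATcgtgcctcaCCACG
Canx site, chr11:50325800-50325818, - strand: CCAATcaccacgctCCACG
Pdia6 site, chr12:17266491-17266509, + strand: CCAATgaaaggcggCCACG
Ero1lb site, chr13:12565682-12565700, - strand: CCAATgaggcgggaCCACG
Dnajc3 site, chr14:118937827-118937845, + strand: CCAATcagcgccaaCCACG
Creld2 site, chr15:88819520-88819538, - strand: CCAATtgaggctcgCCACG
Syvn1 site, chr19:6046532-6046550, + strand: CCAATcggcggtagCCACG

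Syvn1 held its copy nearest to the start, at bases -44 to -26, and Hspa5 at -65 to -47. Hsp90b1 was the member with more than 1 copy, at -212 to -194 and at -107 to -89. Herpud1 held no ERSE but 1 copy of ERSE-II, ATTGG and CCACG with 1 free base between them, which 0.0333% of all promoters had. Herpud1 also held TGATGNAAN, the composite element to which ATF4 dimers can bind, found in 3.51% of all promoters. The element TGACGTGG, called UPRE, was in none of the 26 promoters and in 0.503% of all. CCAAT alone, which is also a part of every ERSE and ERSE-II on one strand or the other, was in 21 of 26 promoters (80.8%) and in 34.5% of all. A match describes letters and is no proof of a site in use. The promoters of the members that the results turn on are given on the strand of the gene, each ending at the base before the start. Capitals mark ERSE copies, which read CGTGG first and ATTGG last where the element lies on the other strand. Ckap4, which had the widest log2 difference of the 32 genes in busulfan with L.J. against busulfan, had none of the searched elements.

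Hspa5 promoter, chr2:34771840-34772089, + strand: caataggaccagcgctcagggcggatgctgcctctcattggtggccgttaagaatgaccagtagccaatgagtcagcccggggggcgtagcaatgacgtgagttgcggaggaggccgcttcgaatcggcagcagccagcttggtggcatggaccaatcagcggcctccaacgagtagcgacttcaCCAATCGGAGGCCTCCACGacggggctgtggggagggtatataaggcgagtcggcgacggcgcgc
Hsp90b1 promoter, chr10:86705445-86705694, - strand: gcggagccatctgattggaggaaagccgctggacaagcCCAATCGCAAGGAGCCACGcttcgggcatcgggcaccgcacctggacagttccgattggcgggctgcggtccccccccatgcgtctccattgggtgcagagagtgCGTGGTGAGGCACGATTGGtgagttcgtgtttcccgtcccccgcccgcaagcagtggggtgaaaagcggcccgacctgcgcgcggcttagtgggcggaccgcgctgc
Calr promoter, chr8:84846932-84847181, - strand: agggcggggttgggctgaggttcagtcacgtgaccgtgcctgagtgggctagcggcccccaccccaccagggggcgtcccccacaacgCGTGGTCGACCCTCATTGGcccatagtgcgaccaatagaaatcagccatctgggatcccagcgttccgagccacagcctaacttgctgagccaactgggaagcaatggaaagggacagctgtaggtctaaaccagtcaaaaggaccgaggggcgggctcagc
Creld2 promoter, chr15:88819396-88819645, + strand: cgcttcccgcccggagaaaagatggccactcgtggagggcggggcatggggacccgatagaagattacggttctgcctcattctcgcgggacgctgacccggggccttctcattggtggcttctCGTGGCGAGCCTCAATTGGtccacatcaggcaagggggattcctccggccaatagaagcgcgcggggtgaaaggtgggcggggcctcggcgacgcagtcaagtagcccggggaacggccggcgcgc
Ckap4 promoter, chr10:84533889-84534138, - strand: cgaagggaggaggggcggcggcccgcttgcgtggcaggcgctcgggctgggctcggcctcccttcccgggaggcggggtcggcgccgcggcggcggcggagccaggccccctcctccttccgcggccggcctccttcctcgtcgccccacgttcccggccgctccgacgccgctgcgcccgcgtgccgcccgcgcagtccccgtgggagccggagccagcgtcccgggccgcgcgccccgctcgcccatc

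Levels were deposited as FPKM, a value that takes out gene length and library size, so levels of different genes can be compared per length. The read depth behind each value is unknown. The 32 genes together summed to 2513.88, 2417.52 and 2586.03 FPKM in busulfan with L.J., to 3646.01, 3367.5 and 3812.33 FPKM in busulfan, to 3038.33, 2861.92 and 3734.68 FPKM in L.J., and to 2796.38, 2514.43 and 2775.34 FPKM in controls. Every busulfan library thus stood above every library of busulfan with L.J. and every control. Among the L.J. libraries, L.J. 3 stood at the level of busulfan and the other two just above the highest control. Calr, Hsp90b1 and Hspa5 were the most abundant members per length, while Trib3 stayed near 1 FPKM.

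**Figure D1:**
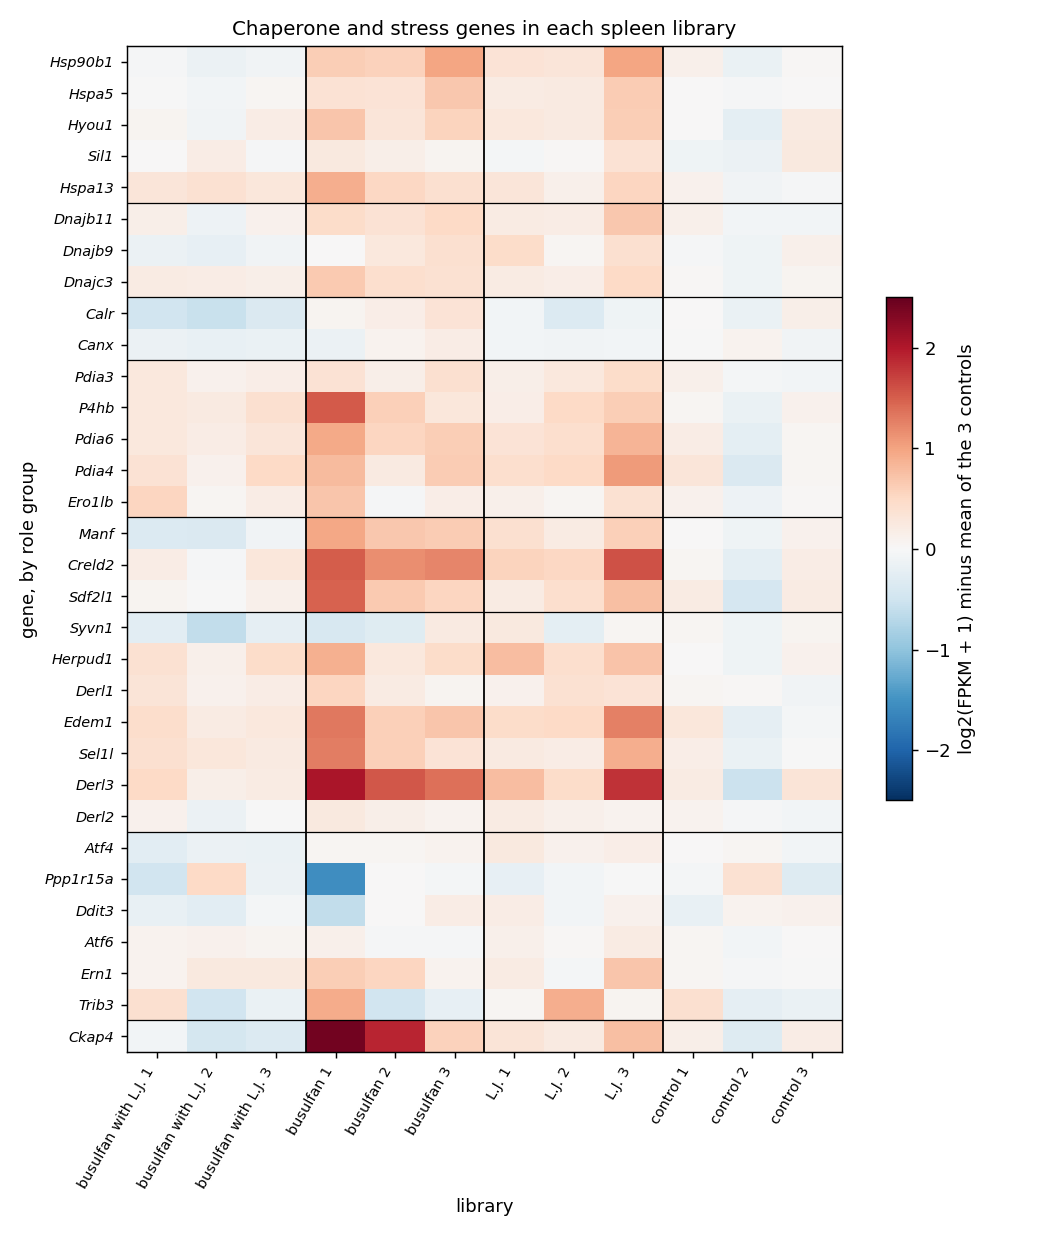
Each row is 1 of the 32 genes, grouped by role, and each column 1 library. Colour gives log2(FPKM + 1) of the library minus the mean of the 3 controls. Red fills most rows in the busulfan libraries and in L.J. 3, with Ckap4 and Derl3 the deepest in busulfan 1, while busulfan with L.J. is pale, with Calr and Syvn1 in blue.

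In busulfan with L.J. against busulfan, 4 of the 32 genes fell, and none rose. These were Manf, Creld2, Calr and Ckap4 (limma on log2(FPKM + 1), Benjamini-Hochberg adjusted p under 0.05 over 13138 genes). Of all genes tested, 1.66% were called in this comparison and 0.578% were called lower. At an unadjusted p under 0.05, 15 of the 32 genes were lower, against 9.4% of all genes. The log2 difference was negative for 30 of 32 genes, with a median of -0.30 against 0.05 for all genes. For 16 of the 32, all 3 libraries of busulfan with L.J. lay below all 3 busulfan libraries, which held for 9% of all genes, and they lay above them for no member. In a bulk tissue, fewer cells that hold a transcript and less of it per cell cannot be told apart.

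The call on these members depended on which libraries were fitted. None was called when busulfan with L.J. 1 or busulfan with L.J. 2 was left out, and 1 was called without busulfan 2, without busulfan with L.J. 3, without L.J. 2 or without any 1 of the controls. There were 2 without L.J. 1 or L.J. 3, 4 without busulfan 1 and 6 without busulfan 3. Calls over all genes ranged from 2 without busulfan with L.J. 1 or 2 to 1378 without busulfan 3, against 218 with all libraries. They are not given here for each of the other libraries left out. These counts therefore cannot tell a change of the members from a change over all genes. With only the 2 groups of the comparison in the fit, none was called. Over 26 alternatives, adjusted p ranged from 0.003 to 0.138 for Manf, from 0.0118 to 0.193 for Calr, from 0.000217 to 0.204 for Ckap4 and from 0.0201 to 0.27 for Creld2. Manf stayed past the threshold in 21 of these, Calr and Ckap4 in 10 each and Creld2 in 9.

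In busulfan against control, no member passed the adjusted threshold, where 0.0304% of all genes did. At an unadjusted p under 0.05, 19 of the 32 genes were higher, against 5.72% of all genes, and none was lower. All 3 busulfan libraries lay above all 3 controls for 19 members, which held for 5.62% of all genes, and below them for none, where 7.31% of all genes did. The log2 difference was positive for 29 of 32 genes, with a median of 0.45 against -0.03 for all genes. Busulfan 3 weighed on this count: without it, 10 members passed the adjusted threshold, all of them higher, among 829 genes called in all. Without L.J. 3, 1 member passed among 3 genes called in all, and with library weights 2 did among 107.

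**Figure D2:**
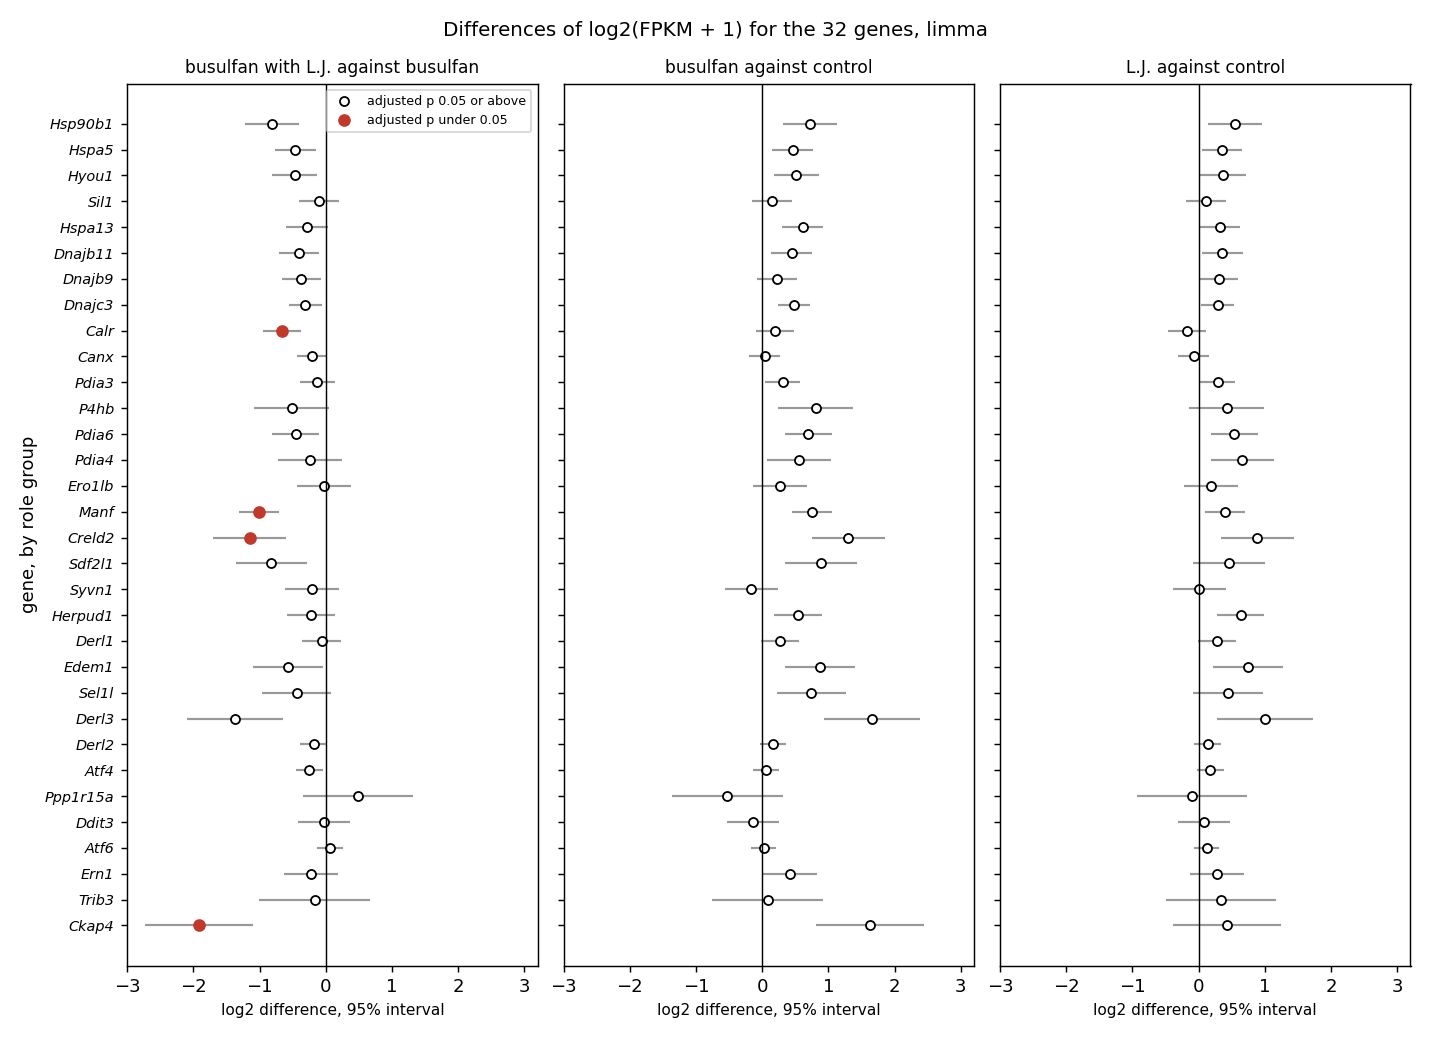
Points are log2 differences of log2(FPKM + 1) and bars their 95% intervals from limma, for the 32 genes by role in 3 comparisons. Filled points mark the 4 genes past the adjusted threshold, Manf, Creld2, Calr and Ckap4, all in busulfan with L.J. against busulfan. The left and middle panels share their busulfan libraries, and the middle and right panels their controls.

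In L.J. against control no member was called, where 0.0304% of all genes were. At an unadjusted p under 0.05, 15 of the 32 genes were higher, against 5.7% of all genes, and all 3 L.J. libraries lay above all controls for 19 members, against 11.4% of all genes. The median log2 difference was 0.33 against 0.02 for all genes. The same controls serve this comparison and that of busulfan. In busulfan with L.J. against control, also with no call among the members and 0.0609% of all genes called, the median was 0.06 against 0.04 for all genes. There, 8 members lay above all controls, Atf6, Derl1, Dnajc3, Ern1, Herpud1, Hspa13, P4hb and Sel1l, against 19.4% of all genes, and 4 lay below all controls, Atf4, Calr, Canx and Syvn1, against 15.7%. At an unadjusted p under 0.05, 1 member was higher, against 9.86% of all genes, and 1 was lower, against 9.12%.

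In busulfan with L.J. against L.J., no member and none of all genes tested (0%) was called. At an unadjusted p under 0.05, 9 members were lower, against 3.06% of all genes, and for 14 members all 3 libraries lay below those of L.J., against 7.91% of all genes. The interaction asks whether the difference between busulfan with L.J. and busulfan differs from that between L.J. and control. It called no member and none of all genes (0%), and at an unadjusted p under 0.05, 22 of the 32 genes were negative, against 5.31% of all genes. The smallest adjusted p of the whole interaction was that of Manf, with a log2 value of -1.42 (adjusted p = 0.0928, limma). Without busulfan 3, 7 members passed in the interaction, among 511 genes called in all, and with library weights 5 did, among 220.

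Among the proteins that leave or can leave the cell under stress, Manf and Creld2 fell in busulfan with L.J. against busulfan. Manf (chr9:106888753-106891938 on GRCm38.p6) encodes a small protein that binds BiP and is released when the calcium of the reticulum runs low. It stood at 50.79, 50.27 and 60.87 FPKM in busulfan with L.J., at 127.28, 102.96 and 100.62 FPKM in busulfan, at 85.98, 74.44 and 97.99 FPKM in L.J., and at 64.68, 59.64 and 69.7 FPKM in controls. The busulfan libraries were the highest of all 12, the L.J. libraries lay between them and the controls, and those given both overlapped with the controls. The log2 difference in busulfan with L.J. against busulfan was -1.01 (SE 0.14, 95% interval -1.32 to -0.71, adjusted p = 0.0164, limma), with group means of 53.98 ± 5.98 and 110.29 ± 14.76 FPKM (SD, n = 3 each). In busulfan against control it was 0.76 (SE 0.14, adjusted p = 0.115), and in L.J. against control 0.40 (SE 0.14, adjusted p = 0.548).

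Creld2 (chr15:88819646-88826681) encodes a chaperone of the reticulum with EGF-like repeats that is a known target of ATF6. It stood at 36.41, 31.07 and 38.82 FPKM in busulfan with L.J., at 91.93, 72.34 and 75.07 FPKM in busulfan, at 46.86, 45.85 and 98.03 FPKM in L.J., and at 32.98, 26.72 and 36.15 FPKM in controls. Busulfan with L.J. overlapped with the controls, while busulfan did not, and L.J. 3 was the highest library of all. The log2 difference in busulfan with L.J. against busulfan was -1.15 (SE 0.25, adjusted p = 0.0484, limma). In busulfan against control it was 1.30 (SE 0.25, adjusted p = 0.124), and without busulfan 3 it was 1.34 (adjusted p = 0.0254, limma), with adjusted p over all alternatives between 0.0219 and 1. Sdf2l1, a partner of the BiP and Dnajb11 cycle, did not pass, with a log2 difference of -0.82 in busulfan with L.J. against busulfan (adjusted p = 0.0925, limma) and 0.89 in busulfan against control (adjusted p = 0.235).

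The lectin chaperones calreticulin (Calr) and calnexin (Canx) hold newly made glycoproteins until they are folded, and calreticulin also stores calcium. Calr (chr8:84842088-84846931) was measured at 499.8, 476.28 and 540.61 FPKM in busulfan with L.J., at 735.37, 784.7 and 888.36 FPKM in busulfan, at 669.89, 552.49 and 646.81 FPKM in L.J., and at 708.88, 619.19 and 779.47 FPKM in controls. It was the most abundant of the 32 genes in 11 of 12 libraries, and its libraries of busulfan with L.J. were the 3 lowest. The log2 difference was -0.66 in busulfan with L.J. against busulfan (SE 0.13, adjusted p = 0.0396, limma) and -0.47 in busulfan with L.J. against control (SE 0.13, adjusted p = 0.167). In busulfan against control it was 0.19 (SE 0.13, adjusted p = 0.549), and the libraries of those groups overlapped. Canx ranged from 95.77 to 97.88 FPKM in busulfan with L.J., from 97.61 to 123.42 FPKM in busulfan, from 102.34 to 104.06 FPKM in L.J. and from 102.82 to 116.25 FPKM in controls. Its log2 difference in busulfan with L.J. against busulfan was -0.21 (adjusted p = 0.264, limma).

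Ckap4 (CLIMP-63, chr10:84526305-84533888), which anchors the sheets of the reticulum to microtubules, had the largest log2 difference of the 32 genes in busulfan with L.J. against busulfan. It stood at 15.04, 11.55 and 12.28 FPKM in busulfan with L.J., at 89.62, 62.11 and 24.15 FPKM in busulfan, at 20.12, 18.87 and 27.46 FPKM in L.J., and at 17.69, 12.48 and 18.23 FPKM in controls. Busulfan 1 was 3.71 times busulfan 3, and busulfan 3 still lay above every control and every library of busulfan with L.J. The difference on the log2 scale was -1.92 in busulfan with L.J. against busulfan (SE 0.37, adjusted p = 0.0395, limma) and 1.63 in busulfan against control (SE 0.37, adjusted p = 0.167). Leaving out busulfan 3 moved these to -2.45 (adjusted p = 0.000217) and 2.16 (adjusted p = 0.000461, limma). In busulfan against control the adjusted p over all alternatives ran up to 1, and 2 of 26 passed. Busulfan 3 also had the lowest sums of neutrophil genes (1455.97 FPKM) and acinar genes (231.33 FPKM) of its group, given below. Their part in the Ckap4 values was not tested. In L.J. against control the difference was 0.43 (adjusted p = 0.666).

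**Figure D3:**
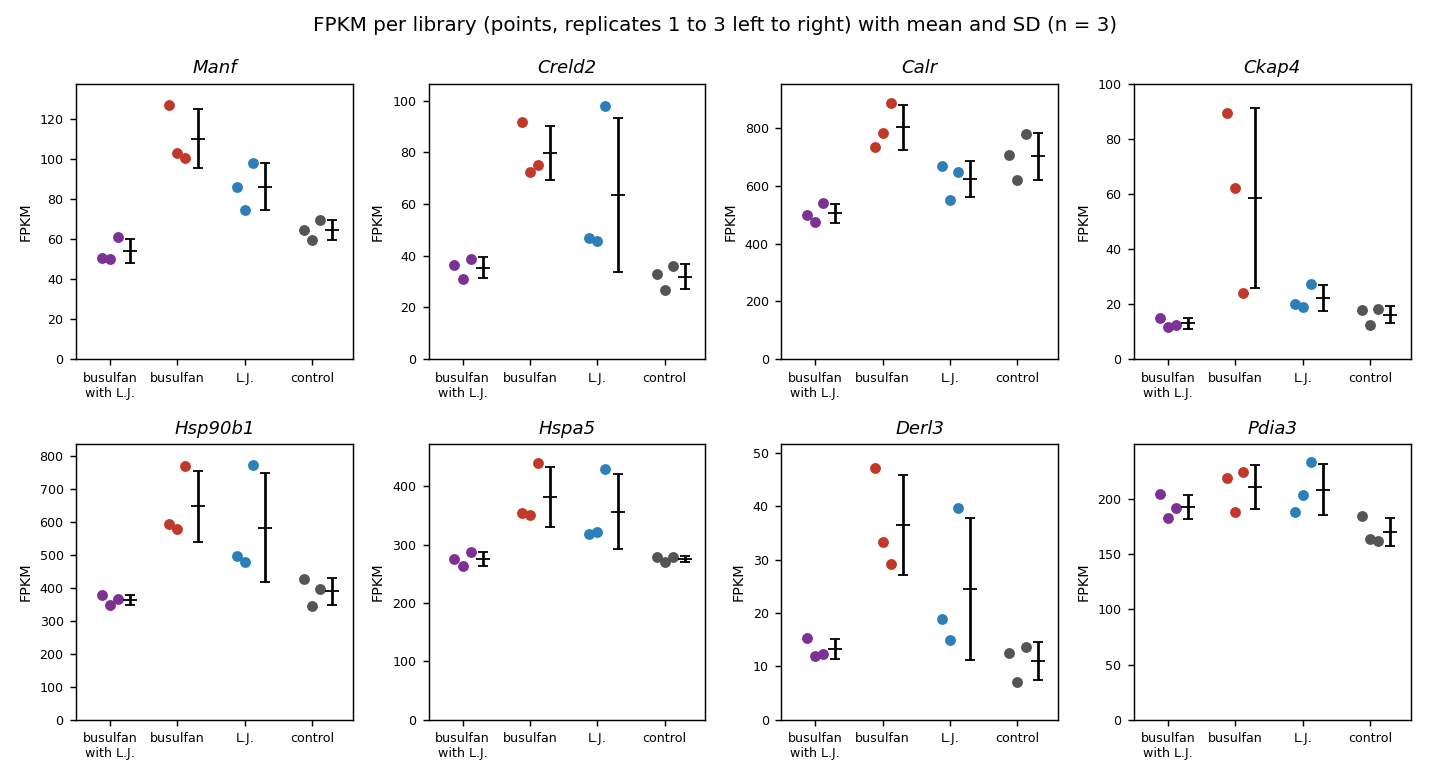
Points are FPKM in single libraries, by group, with the group mean and SD (n = 3) beside them, for Manf, Creld2, Calr, Ckap4, Hsp90b1, Hspa5, Derl3 and Pdia3. For Ckap4 the busulfan points run between 24.15 and 89.62 FPKM, and the points of busulfan with L.J. between 11.55 and 15.04 FPKM.

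None of the 5 chaperones and exchange factors of the Hsp70 and Hsp90 families passed in any comparison. Hsp90b1 (GRP94), a chaperone of the Hsp90 family that folds integrins and Toll-like receptors, stood at 378.01, 348.89 and 365.86 FPKM in busulfan with L.J., at 594.03, 578.19 and 771.05 FPKM in busulfan, at 495.46, 478.04 and 774.13 FPKM in L.J., and at 426.78, 346.39 and 396.36 FPKM in controls. Busulfan and L.J. both lay above every control, and busulfan with L.J. overlapped with the controls. Its log2 difference in busulfan with L.J. against busulfan was -0.82 (SE 0.19, adjusted p = 0.0541, limma), and in busulfan against control 0.72 (SE 0.19, adjusted p = 0.211). Without busulfan 1 the first of these was -0.87 and passed (adjusted p = 0.0433, limma), with adjusted p over all alternatives between 0.0305 and 0.226. Hspa5 (BiP), the central chaperone of the pathway, stood at 275.93, 264.14 and 287.25 FPKM in busulfan with L.J., at 354.03, 350.94 and 440.75 FPKM in busulfan, at 318.3, 321.31 and 430.31 FPKM in L.J., and at 279.73, 270.25 and 278.58 FPKM in controls. The order of the groups was that of Hsp90b1, with log2 differences of -0.46 in busulfan with L.J. against busulfan (adjusted p = 0.0941, limma) and 0.46 in busulfan against control (adjusted p = 0.261).

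Hspa13, an ATPase of the Hsp70 family bound to the membrane of the reticulum, stood at 8.57, 9.05 and 8.4 FPKM in busulfan with L.J., at 13.5, 9.98 and 9.24 FPKM in busulfan, at 8.46, 7.46 and 10.11 FPKM in L.J., and at 7.35, 6.26 and 6.55 FPKM in controls. The controls were the lowest 3 libraries. Its log2 difference came to -0.28 in busulfan with L.J. against busulfan (adjusted p = 0.253, limma) and 0.61 in busulfan against control (adjusted p = 0.167). Hyou1 (GRP170) and Sil1, both exchange factors of BiP, had log2 differences in busulfan with L.J. against busulfan of -0.47 (adjusted p = 0.115) and -0.10 (adjusted p = 0.712, limma).

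Of the 3 J-domain proteins, which stimulate the ATPase of BiP, none passed in any comparison. Dnajb11 (ERdj3) stood at 64.8, 53.21 and 62.35 FPKM in busulfan with L.J., at 80.79, 75.51 and 82.39 FPKM in busulfan, at 67.43, 66.44 and 93.42 FPKM in L.J., and at 63.86, 55.38 and 55.68 FPKM in controls. Busulfan lay above busulfan with L.J. and above the controls in all 3 libraries. For Dnajb11 the log2 difference was -0.40 in busulfan with L.J. against busulfan (adjusted p = 0.127, limma) and 0.44 in busulfan against control (adjusted p = 0.271). Dnajb9 (ERdj4), which also restrains IRE1, and Dnajc3 (P58IPK) had log2 differences of -0.37 (adjusted p = 0.143) and -0.31 (adjusted p = 0.14, limma) in busulfan with L.J. against busulfan.

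The 4 disulfide isomerases and the oxidase Ero1lb gave no call. Pdia3 (ERp57), which works on the glycoproteins held by calnexin and calreticulin, stood at 204.13, 182.5 and 191.56 FPKM in busulfan with L.J., at 219.13, 188.13 and 224.89 FPKM in busulfan, at 188.22, 203.61 and 233.79 FPKM in L.J., and at 184.32, 163.57 and 161.91 FPKM in controls. The groups given an agent overlapped with one another. The log2 difference was -0.13 in busulfan with L.J. against busulfan (95% interval -0.39 to 0.14, adjusted p = 0.561, limma). P4hb, the founding protein disulfide isomerase, ranged from 76.2 to 85.73 FPKM in busulfan with L.J., from 79.04 to 191.11 FPKM in busulfan, from 73.09 to 99.56 FPKM in L.J. and from 57.72 to 70.25 FPKM in controls. Its top value was that of busulfan 1, 2.42 times busulfan 3. Pdia6 and Pdia4, further isomerases, had log2 differences in busulfan with L.J. against busulfan of -0.45 (adjusted p = 0.136) and -0.24 (adjusted p = 0.541, limma), and Ero1lb, which reoxidises isomerases, of -0.02 (adjusted p = 0.957).

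The 7 genes of the degradation machinery gave no call either. Derl3, a derlin of the channel that exports misfolded protein, is a target of IRE1 and XBP1. It stood at 15.4, 11.93 and 12.38 FPKM in busulfan with L.J., at 47.1, 33.22 and 29.1 FPKM in busulfan, at 18.83, 14.92 and 39.62 FPKM in L.J., and at 12.46, 7.05 and 13.56 FPKM in controls. Busulfan lay above busulfan with L.J. and above the controls without overlap, and the one L.J. library inside the busulfan range was L.J. 3. The log2 difference was -1.38 in busulfan with L.J. against busulfan (SE 0.33, adjusted p = 0.0586, limma) and 1.66 in busulfan against control (SE 0.33, adjusted p = 0.135). Without busulfan 3 the log2 differences were -1.52 (adjusted p = 0.029) and 1.80 (adjusted p = 0.0212, limma), with adjusted p over all alternatives between 0.029 and 0.333 and between 0.0212 and 1.

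Syvn1 (HRD1), the ubiquitin ligase of this machinery, was the most abundant of the 7 per length and ran otherwise. It stood at 72.8, 57.2 and 75.21 FPKM in busulfan with L.J., at 66.11, 70.91 and 103.07 FPKM in busulfan, at 103.86, 73.86 and 91.33 FPKM in L.J., and at 90.83, 81.11 and 92.46 FPKM in controls. Busulfan with L.J. lay below all controls and overlapped with busulfan. Its log2 difference was -0.21 in busulfan with L.J. against busulfan (adjusted p = 0.528, limma) and -0.16 in busulfan against control (adjusted p = 0.711). Edem1, which takes mannose-trimmed glycoproteins out of folding, Sel1l, the adaptor of Syvn1, and Herpud1, a stress-induced partner of Syvn1, had log2 differences of 0.87 (adjusted p = 0.235), 0.74 (adjusted p = 0.28) and 0.54 (adjusted p = 0.261, limma) in busulfan against control. The derlins Derl1 and Derl2 had 0.27 (adjusted p = 0.438) and 0.16 (adjusted p = 0.487).

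The 6 sensors, transcription factors and targets gave no call, and their median log2 difference was the nearest to 0 of the role groups, -0.10 in busulfan with L.J. against busulfan and 0.04 in busulfan against control. Atf4 stood at 138.28, 149.96 and 147.87 FPKM in busulfan with L.J., at 171.29, 171.38 and 175.4 FPKM in busulfan, at 196.41, 179.38 and 186.39 FPKM in L.J., and at 166.99, 172.51 and 158.35 FPKM in controls. The libraries of busulfan with L.J. were the 3 lowest and those of L.J. the 3 highest. For Atf4 the log2 difference was -0.25 in busulfan with L.J. against busulfan (SE 0.09, adjusted p = 0.151, limma) and 0.06 in busulfan against control (SE 0.09, adjusted p = 0.803). Atf4 is controlled mainly at translation, which FPKM do not measure. Ddit3 (CHOP), a factor of prolonged stress, ranged from 22.5 to 26.38 FPKM in busulfan with L.J., from 17.47 to 30.96 FPKM in busulfan, from 26.07 to 31.16 FPKM in L.J. and from 23.76 to 29.52 FPKM in controls, and the 4 groups overlapped.

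Ppp1r15a (GADD34), which guides the phosphatase that restores translation, spread widely within groups, from 77.2 to 151.96 FPKM in busulfan with L.J., from 35.96 to 108.47 FPKM in busulfan, from 93.11 to 106.13 FPKM in L.J. and from 85.66 to 139.16 FPKM in controls. It was one of the pair of members with a positive log2 difference in busulfan with L.J. against busulfan, 0.49 (SE 0.38, adjusted p = 0.465, limma), the other being Atf6 with 0.06 (SE 0.09, adjusted p = 0.702). Ern1, the IRE1 sensor, had a log2 difference of 0.42 in busulfan against control (adjusted p = 0.397, limma). Trib3, a target of Atf4 and Ddit3, ranged from 0.16 to 2.07 FPKM over all libraries and passed the filter on low values through the L.J. group alone.

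The promoters with an ERSE were then set beside the measured differences, as a description. The 10 members with the element had a median log2 difference of -0.46 in busulfan with L.J. against busulfan, with all 10 negative, and of 0.47 in busulfan against control, with 9 positive and Syvn1 negative. The 16 members whose promoter lacked it had medians of -0.24 and 0.43. Elsewhere the members with and without the element had similar medians. These were 0.32 and 0.35 in L.J. against control, -0.33 and -0.32 in busulfan with L.J. against L.J., and -0.70 and -0.72 in the interaction. Of 23 other genes of the promoter table that held the element, 8 were tested. Their medians were -0.37 in busulfan with L.J. against busulfan and -0.03 in busulfan against control. In the first comparison 5 were lower and 3 higher, from -1.06 to 0.60. The 8 include Xlr3a, Xlr3b and Xlr3c, genes of one family, and Alg12, a glycan gene of the wider list described next. Of the 4 genes that fell, Calr and Creld2 held the element, Ckap4 did not, and the promoter of Manf was not analysed here.

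Beyond the 32 genes, a list of 119 further genes of folding, glycan assembly, degradation, stress signalling and export to the Golgi was followed, of which 117 were tested. In busulfan with L.J. against busulfan, 4 of them fell and 1 rose, against 1.66% of all genes called, and 74 had a negative and 43 a positive log2 difference, with a median of -0.14. Those that fell were Krtcap2, a subunit of the oligosaccharyltransferase (log2 difference -0.79, adjusted p = 0.0396), Atf5, a factor related to Atf4 (-1.26, adjusted p = 0.0396), Tmed2, a cargo receptor of transport vesicles (-0.58, adjusted p = 0.0442), and Kdelr1, which retrieves chaperones from the Golgi (-0.59, adjusted p = 0.0484, limma). The one that rose was Mbtps1, the protease that cuts ATF6 (0.50, adjusted p = 0.0484, limma). In every other comparison none of the 117 passed the adjusted threshold, while at an unadjusted p under 0.05 there were 38 in busulfan against control (32.5%, 36 of them higher, against 12.2% of all genes) and 44 in the interaction (37.6% against 11.5%). There were 19 in L.J. against control (16.2% against 8.91%) and 13 in busulfan with L.J. against L.J. (11.1% against 5.61%). The 22 in busulfan with L.J. against control, 18.8%, were at the share of all genes, 19%. The 5 calls numbered none without L.J. 2, L.J. 3, busulfan 2, control 1, control 2 or any 1 library of busulfan with L.J., 1 without control 3, 2 without L.J. 1, 9 without busulfan 1 and 19 without busulfan 3. Without busulfan 3, 18 of the list passed in busulfan against control and 12 in the interaction, in fits that called 829 and 511 genes in all. The whole table held, in busulfan with L.J. against busulfan, 1378 calls without busulfan 3 and 755 without busulfan 1, against 218 with all libraries. Not every library left out has its calls over all genes given. The counts of the wider list therefore cannot be told from a change over all genes.

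Atf5 stood at 25.45, 21.82 and 31.1 FPKM in busulfan with L.J., at 84.38, 59.82 and 50.77 FPKM in busulfan, at 56.77, 30.78 and 38.67 FPKM in L.J., and at 42.48, 43.52 and 62.55 FPKM in controls. Mbtps1 stood at 24.98, 26.09 and 26.4 FPKM in busulfan with L.J., at 20.21, 15.85 and 18.27 FPKM in busulfan, at 19.01, 22.08 and 23.41 FPKM in L.J., and at 19.68, 17.38 and 17.74 FPKM in controls. For both, busulfan with L.J. stood apart from busulfan and from the controls without overlap, low for Atf5 and high for Mbtps1. Krtcap2 stood at 81.3, 64.47 and 74.23 FPKM in busulfan with L.J., at 154.07, 117.12 and 113.56 FPKM in busulfan, at 91.09, 91.96 and 115.61 FPKM in L.J., and at 83.31, 77.81 and 98.62 FPKM in controls. Here the busulfan libraries lay above all others except L.J. 3, which reached into their range, and those of busulfan with L.J. overlapped with the controls. Tmed2 and Kdelr1 ranged from 108.73 to 122.89 FPKM and from 61.89 to 66.79 FPKM in busulfan with L.J., and from 153.13 to 188.97 FPKM and from 85.1 to 107.99 FPKM in busulfan. Both genes were lower in busulfan with L.J. than in every control, where Tmed2 ranged from 127.26 to 139.56 FPKM and Kdelr1 from 79.71 to 102.4 FPKM.

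Xbp1, whose mRNA is the substrate of IRE1, stood at 64.49, 54.51 and 63.43 FPKM in busulfan with L.J., at 174.13, 133.71 and 85.05 FPKM in busulfan, at 61.61, 66.41 and 118.22 FPKM in L.J., and at 58.37, 41.22 and 54.89 FPKM in controls. Busulfan did not overlap with busulfan with L.J. or with the controls. The log2 differences, -1.04 in busulfan with L.J. against busulfan (adjusted p = 0.0735, limma) and 1.29 in busulfan against control (adjusted p = 0.167), did not pass, and gene-level FPKM do not separate spliced from unspliced mRNA. The sensor gene Eif2ak3 (PERK) had log2 differences of 0.33 in busulfan with L.J. against busulfan (adjusted p = 0.2, limma) and 0.52 in busulfan with L.J. against control (adjusted p = 0.168). Atf6b, a relative of Atf6, had a log2 difference of -0.31 in busulfan with L.J. against busulfan (adjusted p = 0.154, limma).

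Transcripts of the exocrine pancreas were present in several of these spleen libraries, beside the genes of spleen: the B cell gene Cd79a ranged from 649.18 to 1883.89 FPKM over the 12 libraries, and Clec4f, a marker of liver macrophages, was at most 0.08 FPKM. Low levels of hepatocyte transcripts were present too: Alb ranged from 1.79 to 2.28 FPKM in busulfan with L.J., from 1 to 2.34 FPKM in busulfan, from 3.22 to 5.73 FPKM in L.J. and from 7.27 to 34.16 FPKM in controls. All 9 hepatocyte genes had a negative log2 difference in busulfan against control (median -1.30), 6 had a positive one in busulfan with L.J. against busulfan (median 0.19), and none was called. The amylase Amy2a5 stood at 0.73, 0.03 and 32.16 FPKM in busulfan with L.J., at 19029.7, 1483.72 and 55.75 FPKM in busulfan, at 167.06, 19.2 and 1176.62 FPKM in L.J., and at 0, 0 and 0.25 FPKM in controls. The elastase Cela2a stood at 0.53, 0.07 and 18.01 FPKM in busulfan with L.J., at 3827.92, 177.07 and 10.16 FPKM in busulfan, at 57.94, 6.43 and 565.27 FPKM in L.J., and at 0, 0.08 and 0 FPKM in controls. All 25 acinar genes of the list were positive in busulfan against control and in L.J. against control. In busulfan with L.J. against busulfan all 25 were negative, with a median log2 difference of -5.13. None was called in any comparison. Their sum ranged from 18.41 to 224.59 FPKM in busulfan with L.J., from 231.33 to 60789.34 FPKM in busulfan, from 109.99 to 6887.57 FPKM in L.J. and from 15.86 to 15.96 FPKM in controls, where 11 to 13 of the 25 genes were listed at 0. The 3 libraries with the most amylase, busulfan 1, busulfan 2 and L.J. 3, were among the 4 with the highest sums of the 32 genes. Busulfan 3, with the least amylase of its group, had the highest sum of all 12 libraries. Counted gene by gene within the busulfan group, 21 of the 32 genes were highest in busulfan 1, 10 in busulfan 3 and 1 in busulfan 2. The abundant Calr, Hsp90b1 and Hspa5 were among those 10. Within the L.J. group, 22 genes were highest in L.J. 3, 8 in L.J. 1 and 2 in L.J. 2.

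**Figure D4:**
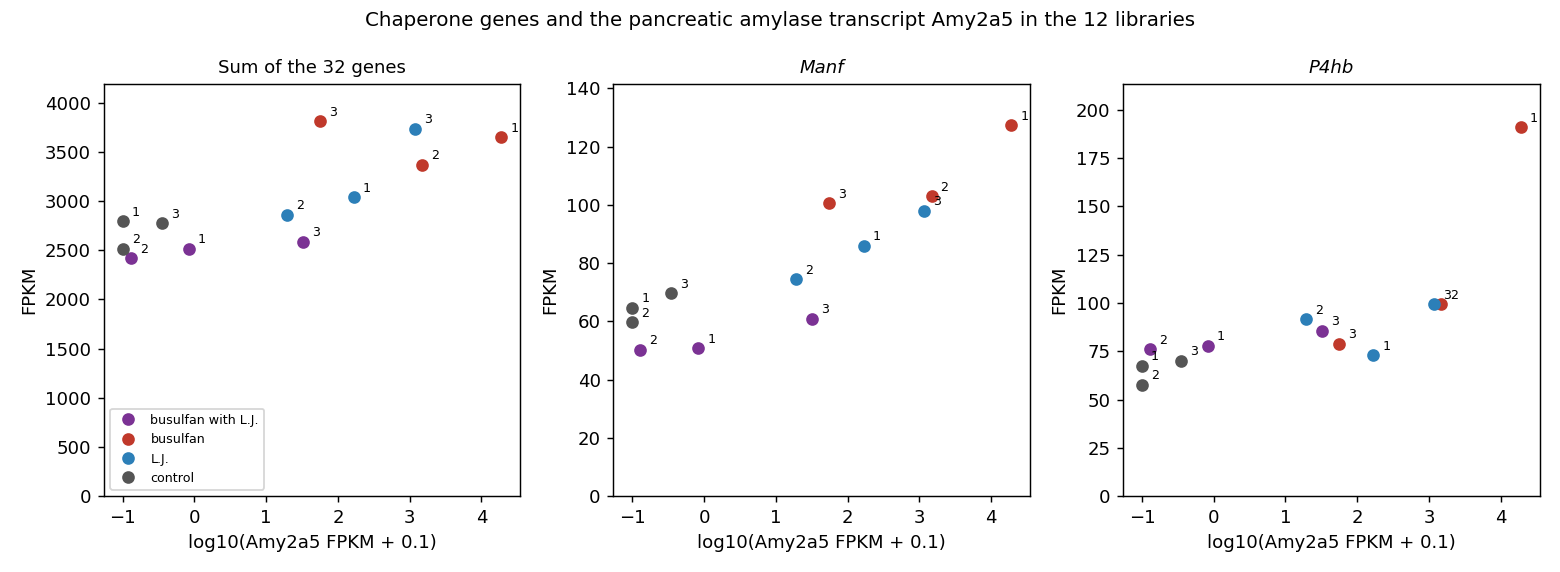
Each point is 1 library, numbered by replicate and coloured by group. The horizontal axis is log10(Amy2a5 FPKM + 0.1), and the vertical axes are the sum of the 32 genes, Manf and P4hb in FPKM. P4hb reaches 191.11 FPKM in busulfan 1 at the highest amylase, while the sum of the 32 genes is highest in busulfan 3.

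Acinar genes held 0.0408% of the FPKM of busulfan with L.J. 3 and 0.0441% of those of busulfan 3, a nearly equal share. In this pair of libraries, which allows no test, Manf was at 60.87 FPKM in busulfan with L.J. 3 and 100.62 FPKM in busulfan 3, and Creld2 was at 38.82 FPKM in busulfan with L.J. 3 and 75.07 FPKM in busulfan 3. Calr was at 540.61 FPKM in busulfan with L.J. 3 and 888.36 FPKM in busulfan 3, and Ckap4 at 12.28 FPKM in busulfan with L.J. 3 and 24.15 FPKM in busulfan 3. For these 4 genes every library of busulfan with L.J. lay below every busulfan library. Any such pair would thus show them lower, and no conclusion on acinar transcripts is drawn from it. The same libraries also differed in the share of FPKM held by neutrophil genes, 0.0795% in busulfan with L.J. 3 and 0.277% in busulfan 3, and by plasma cell genes, 0.152% in busulfan with L.J. 3 and 0.223% in busulfan 3. With an acinar score in the model, no member was called, and the median log2 difference of the members moved to -0.17 in busulfan with L.J. against busulfan and to 0.23 in busulfan against control. The 4 genes then had log2 differences of -0.72 (Manf, adjusted p = 0.138), -0.68 (Creld2, adjusted p = 0.27), -0.69 (Calr, adjusted p = 0.184) and -1.01 (Ckap4, adjusted p = 0.204, limma) in busulfan with L.J. against busulfan. Leaving out the 3 libraries with at least 1000 FPKM of Amy2a5, which keeps 1 busulfan library, gave log2 differences of -0.89 (Manf), -1.07 (Creld2), -0.81 (Calr) and -0.86 (Ckap4). In that fit the lone busulfan library is assumed to vary like the other groups, so only effect sizes are given here. The members' medians there were -0.33 in busulfan with L.J. against busulfan and 0.39 in busulfan against control. Calls and medians over all genes in the fits with an acinar score or without these libraries are not given here. From the values printed for these fits alone, a change particular to the members therefore cannot be told from a change over all genes.

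Markers of other cell types differed between these groups as well. Of the 12 plasma cell genes, which include Xbp1, 3 had a positive and 9 a negative log2 difference in busulfan with L.J. against busulfan, and 8 a positive and 4 a negative one in busulfan against control, with none called in any comparison. The 4 negative ones in busulfan against control were Cd38, Tnfrsf13b, Pou2af1 and Slamf7. The 12 genes summed to between 751.89 and 945.19 FPKM in busulfan with L.J., 1170.93 and 1548.26 FPKM in busulfan, 926.07 and 1909.15 FPKM in L.J., and 634.01 and 962.33 FPKM in controls, and none was listed at 0. Jchain, the joining chain of secreted antibody and a large part of that sum, stood at 398.66, 316.58 and 320.87 FPKM in busulfan with L.J., at 779.59, 722.41 and 509.32 FPKM in busulfan, at 399.24, 377.64 and 1125.22 FPKM in L.J., and at 353.11, 187.89 and 255.05 FPKM in controls, with L.J. 3 on top as for Creld2. The 18 neutrophil genes summed to between 437.18 and 1194.7 FPKM in busulfan with L.J., 1455.97 and 32244.24 FPKM in busulfan, 984.72 and 1879.17 FPKM in L.J., and 597.96 and 961.36 FPKM in controls, and none of them was listed at 0 in any library. All 18 had a negative log2 difference in busulfan with L.J. against busulfan (median -3.13) and a positive one in busulfan against control (median 3.24). One of these genes, the chemokine receptor Cxcr2, fell in busulfan with L.J. against busulfan (log2 difference -1.03, adjusted p = 0.0377, limma). The part of plasma cell, neutrophil and hepatocyte transcripts in the differences of the 32 genes was not tested.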

How the data were processed

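Spleen RNA was measured by RNA-seq in 12 libraries, 3 in each of 4 groups, with groups and replicate numbers taken from the labels. The authors deposited 1 FPKM value per gene and library, per the file headers. Bowtie 0.12.2 and mm10 are named, without their roles, in the submitters' processing notes. How fragments were counted, annotated and filtered is not given in the sources used, so reads of overlapping or near-identical genes cannot be told apart. For 26 genes a symbol that had become a date was restored through its gene number, and 99.2% of gene numbers matched the RefSeq table. A search for whole fragments in 355 sparse genes made 37.9% to 61.4% of values whole within 0.1, depending on the starting point, so the depth is unknown and no count test was run. Deposited FPKM summed to between 511876 and 580364 per library.

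The filter required a mean of 1 FPKM or more in any group, which 13138 of 21004 genes met, including all 32 members. On log2(FPKM + 1) of the 12 libraries, limma 3.58.1 (trend, robust; R 4.3.3) fitted a mean for each group, for 6 contrasts with Benjamini-Hochberg adjustment over all genes at 0.05. A pseudocount of 1 understates differences of weakly expressed genes. Since FPKM are shares of a library, a few very abundant transcripts lower all others. The scripts were tested on simulated data.

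The members and lists were chosen with earlier results of these data known. Values in every library are given for Manf, Creld2 and Calr, for members past the threshold, for the most abundant member of each role group and for the 5 members with the smallest p in each of the first pair of contrasts. Other members with such values, among them Hspa5, and the neutrophil gene Cxcr2 were picked after their values were seen. Promoter sequences are from RefSeq on GRCm38.p6 with coordinates counted from 1. Alternatives were the pseudocount, the filter, the scaling, library weights, the groups fitted, the replicate block, an acinar score as covariate, and libraries left out. Leaving out busulfan 1 and L.J. 3 together was added after seeing the data. Other tools were Python 3.11.15, numpy 2.4.6, pandas 2.3.3 and matplotlib 3.10.9.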

Additional observations from a re-analysis of the deposited data

How the results depend on the processing

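In busulfan with L.J. against busulfan, the 4 calls among the 32 genes became 1 with no filter, FPKM rescaled without acinar genes, or the replicate block. The number was 0 with a fit of only the groups compared or with an acinar covariate. Leaving out 1 library at a time gave between 0 and 6. The 5 calls of the wider list became 3 with a pseudocount of 5, 8 with median of ratios scaling and 21 with library weights. They became 0 with no filter, rescaled FPKM, only the groups compared, the replicate block or the acinar covariate. Except for library weights, calls over all genes under these settings are not given here. The counts alone therefore cannot tell a change of these lists from a change over all genes. Without the libraries with at least 1000 FPKM of Amy2a5, 1 busulfan library was left, so no count is given. Leaving out 1 library gave between 0 and 19. In busulfan against control, library weights gave 2 calls among the 32 genes, leaving out busulfan 1 and L.J. 3 gave 1, and leaving out 1 library gave between 0 and 10, and between 0 and 18 for the wider list. In busulfan with L.J. against control, library weights gave 1 call among the 32 genes and 13 in the wider list. A fit of only the groups compared gave 6 in the wider list. Calls over all genes are not given here for that fit, nor for the one without busulfan 1 and L.J. 3. In the interaction, library weights gave 5 in each list (over all genes, weights called 1989, 107, 1483 and 220 in these 4 contrasts), and leaving out 1 library gave 0 to 7 among the 32 genes and 0 to 12 in the wider list. With weights, the 13 of 117 in busulfan with L.J. against control were at the share of all genes, 1483 of 13138. The 21 of 117 in busulfan with L.J. against busulfan were little above 1989 of 13138. The mean sum of the 32 genes, leaving out 1 library, ranged from 2465.7 to 2549.96 FPKM in busulfan with L.J., 3506.76 to 3729.17 in busulfan, 2950.12 to 3386.5 in L.J. and 2644.89 to 2785.86 in controls.

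Sign changes occurred with quantile normalization for Atf4 (-0.0189) and Calr (-0.0771) in busulfan against control and for Pdia3 (0.0879) in busulfan with L.J. against busulfan. Others were Hspa13 in busulfan with L.J. against busulfan with the acinar covariate (0.0263) and Syvn1 in busulfan against control without the Amy2a5-rich libraries (0.226). None of these was called in either form, and the causes were not tested. Replicate numbers gave no clear sign of pairing. Deviations of same-numbered libraries correlated between -0.315 and 0.338, with 7 of 18 pairs negative. Libraries of other numbers correlated between -0.411 and 0.38, with 19 of 36 pairs negative. With 3 libraries per group these values cannot exclude pairing or a shared batch, so no conclusion is drawn from the block result. With depth unknown, no limit can be set on values near 0.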
